A study of Mus musculus with 6 samples.

Results

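The aminoacyl-tRNA synthetases are the enzymes that join each amino acid to its transfer RNA. Their transcripts were measured in CD11b+ Gr-1+ myeloid cells sorted from mouse gliomas, with 3 libraries from tumours with mutant IDH1 (mIDH1) and 3 from tumours with wild-type IDH1 (wtIDH1). All mice were C57BL/6 by the labels, and the sources used here give neither the other alleles of the tumour model nor the age of the animals. IDH1 is the cytosolic isocitrate dehydrogenase, whose glioma mutant makes 2-hydroxyglutarate. The labelled difference is the genotype of the tumour. Whether each library came from a different mouse is not stated, so the p-values reflect only how far these libraries varied, and some of that variation may be technical. The members are the 36 genes of the deposited table, out of 23107, whose symbol is that of a synthetase in the older mouse nomenclature, 20 of them cytosolic and 16 mitochondrial. All 36 had enough counts to be tested.

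Cells hold separate sets of synthetases for translation in the cytosol and in mitochondria, both encoded in the nucleus. Glycyl- and lysyl-tRNA synthetase are exceptions, because Gars and Kars each encode the enzyme of both compartments. Several cytosolic synthetases sit together in the multisynthetase complex, held by the scaffold proteins Aimp1, Aimp2 and Eef1e1. When uncharged transfer RNA or unfolded protein activates eIF2 kinases, the transcription factor ATF4 raises many cytosolic synthetase genes along with genes of amino acid synthesis and uptake. Tryptophanyl-tRNA synthetase, encoded by Wars, is in addition induced by interferon gamma in macrophages.

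Library totals ranged from 19728204 to 35093267 estimated counts, so that 3 counts, the number a count of 0 still allows, stood for a CPM of 0.0855 to 0.152. Levels below are CPM, counts scaled to a common library size, corrected by TMM, a factor that corrects for differences in library composition. Itgam, the gene of CD11b, lay between 1832 and 2224 CPM in mIDH1 and between 1780 and 2058 CPM in wtIDH1 libraries. Ly6c2, the gene of a Ly6C antigen, was at 33.8 to 54.3 CPM in mIDH1 and at 120 to 215 CPM in wtIDH1 libraries, and it was called lower (adjusted p = 0.0018). Over all genes tested 2.78% were called higher and 5.39% lower. Of 9 macrophage markers 5 rose, with a summed level of 6472 to 14179 CPM in mIDH1 and 4283 to 5164 CPM in wtIDH1. Apoe was the largest part of that sum in every library. It was at 2173, 2690 and 6836 CPM in mIDH1, against 2184, 1930 and 1920 CPM in wtIDH1, with overlapping groups, and was not called. Of 6 monocyte markers 2 fell (summed level 3177 to 4768 CPM in mIDH1, 5163 to 8506 CPM in wtIDH1), and of 10 tested neutrophil markers 3 rose and 1 fell (445 to 510 CPM in mIDH1, 337 to 418 CPM in wtIDH1). The neutrophil markers that rose were Cxcr2, Mmp8 and Lcn2. Csf3r fell, at 110 to 176 CPM in mIDH1 and 248 to 273 CPM in wtIDH1 (edgeR adjusted p = 0.021). S100a8, a defining neutrophil gene, was at 9.37 to 11.3 CPM in mIDH1 and at 2.54 to 7.21 CPM in wtIDH1. It was not called (edgeR adjusted p = 0.19). No marker of these 3 lists was at 0 in every library. Of 4 tested glioma and neural markers 3 had positive log2 fold changes, and only Sox2 was called. Sox2 was at 0.546, 7.30 and 4.19 CPM in mIDH1, against 0, 0.0759 and 0.151 CPM in wtIDH1 (edgeR adjusted p = 0.037). Of 6 T and NK markers 5 were positive and none was called (180 to 424 CPM in mIDH1, 120 to 286 CPM in wtIDH1). The microglia, dendritic, B and endothelial lists had no call. The part of these differences in the results for the synthetases was not tested. Fewer cells of a type and less RNA per cell cannot be told apart in bulk samples.

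The motif that ATF4 binds with C/EBP partners is shown because it links synthetase genes to the stress response described further on. RefSeq promoter windows on GRCm38.p6, each running from 250 bases before to 50 bases after a transcription start, were matched for 27 of the 36 genes. Cars, Hars, Lars, Nars, Rars, Vars, Wars, Hars2 and Pars2 had no entry. The letters TGATGNAAN were searched on both strands, and they occurred in 5 of the 28 windows of synthetase genes (17.9%) and in 1299 of all 32851 windows (3.95%). All 5 genes were cytosolic. A match is a description of letters and not a measured binding site. The matches are printed on the strand of the gene with the motif in capitals, and a match on the opposite strand reads as its reverse complement.
Aars, chr8:111033704-111033762, 113 bases before the start: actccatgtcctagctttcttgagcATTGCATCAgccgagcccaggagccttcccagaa
Aars, chr8:111033840-111033868, 8 bases after the start: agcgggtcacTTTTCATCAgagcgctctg
Gars, chr6:55037945-55038000, 31 bases before the start: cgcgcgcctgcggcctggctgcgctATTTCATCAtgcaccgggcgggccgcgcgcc
Tars, chr15:11399659-11399699 on the minus strand, 16 bases before the start: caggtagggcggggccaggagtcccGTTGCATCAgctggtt
Iars, chr13:49682126-49682154, 6 bases after the start: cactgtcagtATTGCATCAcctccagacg
Yars, chr4:129189896-129189924, 3 bases after the start: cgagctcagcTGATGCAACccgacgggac
Read on the strand of the motif, the letters are TGATGCAAT in Iars and in the upstream match of Aars, TGATGCAAC in Tars and Yars, TGATGAAAT in Gars and TGATGAAAA in the downstream match of Aars.

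Among the cytosolic enzymes 1 of 20 fell and none rose in cells from mIDH1 tumours. The gene that fell was Cars, the cysteinyl-tRNA synthetase. Among the mitochondrial enzymes 1 of 16 rose and none fell, and that gene was Iars2, the mitochondrial isoleucyl-tRNA synthetase. The test was edgeR's quasi-likelihood test with Benjamini-Hochberg adjustment over all 12950 genes tested, and it called 8.17% of them at an adjusted p under 0.05, 2.78% higher and 5.39% lower. The 2 calls among 36 synthetase genes were thus no more than the background share. At an unadjusted p under 0.05 there were 2 cytosolic genes higher and 1 lower, and 1 mitochondrial gene higher and 1 lower. The share of all genes under that unadjusted cutoff was not counted, so this and later tallies at it have no background. That share was not small, since Slc6a9, with an unadjusted p of 0.048 in edgeR's test, had an adjusted p of 0.22. DESeq2 and limma voom called no cytosolic gene higher and no mitochondrial gene lower.

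**Figure D1:**
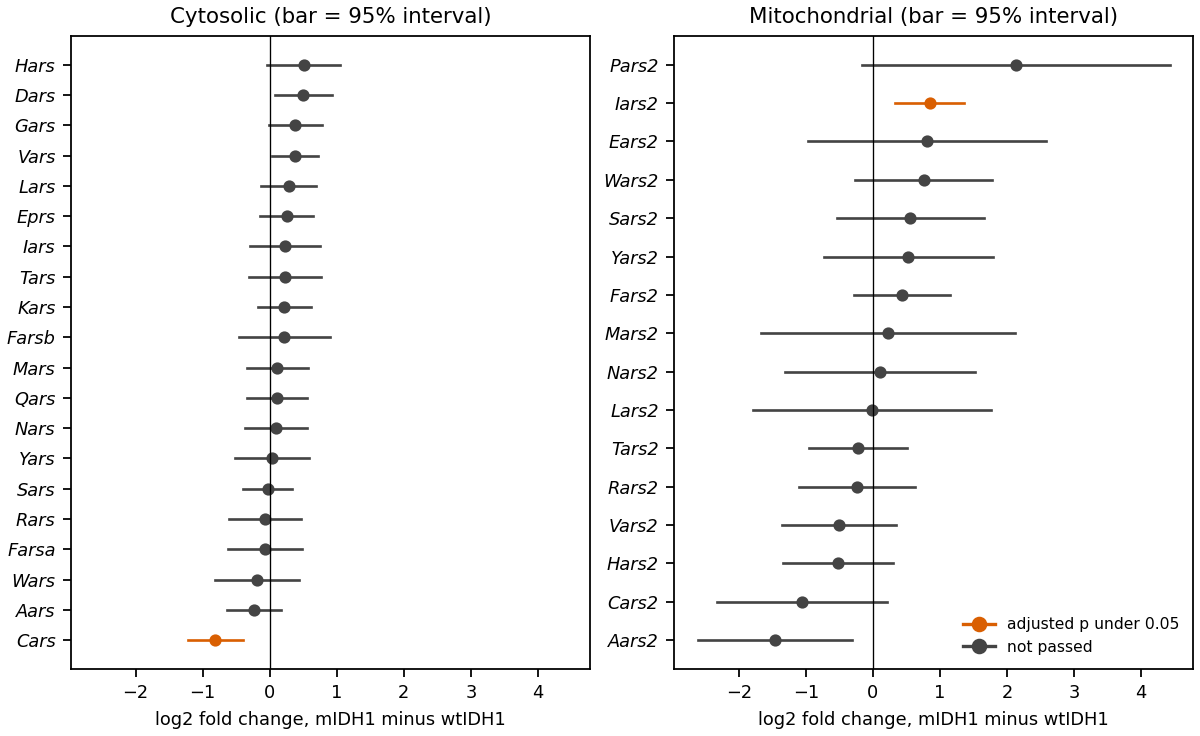
Log2 fold change (mIDH1 minus wtIDH1) of each synthetase gene with its 95% interval, cytosolic on the left and mitochondrial on the right. Cars at -0.81 and Iars2 at 0.85 are the genes past the threshold, and the intervals of the mitochondrial genes are wider.

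Cars, on chromosome 7 from 143557230 to 143600090 (GRCm38.p6), was at 39.1, 38.7 and 39.9 CPM in the mIDH1 libraries, against 69.6, 63.7 and 72.8 CPM in the wtIDH1 libraries. Every mIDH1 library lay below every wtIDH1 library, and the mIDH1 libraries lay close together, at 39.2 ± 0.585 CPM against 68.7 ± 4.62 CPM in wtIDH1 (SD, n = 3 each). The log2 fold change was -0.81 ± 0.19 SE, with a 95% interval from -1.22 to -0.39 (edgeR adjusted p = 0.023). The call was lost without mIDH1 replicate 2 (edgeR adjusted p = 0.067) or wtIDH1 replicate 1, 2 or 3 (adjusted p = 0.067, 0.075 and 0.11), while the log2 fold change stayed between -0.87 and -0.77. A processed pseudogene, Gm15580, shares 4.81% of the 50-base words of the Cars transcripts, so reads from that stretch are uncertain. No exon of another gene overlaps those of Cars in the GENCODE basic transcripts.

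Iars2, on chromosome 1 from 185286642 to 185329419, was at 58.6, 77.0 and 94.0 CPM in the mIDH1 libraries, against 54.0, 36.4 and 37.2 CPM in the wtIDH1 libraries. The groups did not overlap, but mIDH1 replicate 1 and wtIDH1 replicate 1 lay close together. The means were 76.5 ± 17.7 CPM in mIDH1 and 42.5 ± 9.92 CPM in wtIDH1 (SD, n = 3 each), and the log2 fold change was 0.85 ± 0.24 SE, with a 95% interval from 0.33 to 1.36 (edgeR adjusted p = 0.047). The call was lost without mIDH1 replicate 2 or 3 (edgeR adjusted p = 0.12 for both) or wtIDH1 replicate 2 or 3 (adjusted p = 0.20 and 0.18), and with limma voom (adjusted p = 0.053). The 6 libraries ran in the same order for Iars2 as for the summed macrophage markers. How many of all genes ran in that order was not counted. Those sums were 6472, 6819 and 14179 CPM in mIDH1 and 5164, 4283 and 4305 CPM in wtIDH1. Of the single macrophage markers, Mertk, C1qb and C1qc ran in that order, and Mrc1, Emr1, Cd68, C1qa, Apoe and Ms4a7 did not. The part of the difference in macrophage markers in the Iars2 result was not tested.

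The reads of Iars2 may include those of a neighbour. In the GENCODE annotation 2034 bases, or 30.5% of its exon length, overlap exons of Rab3gap2 on the opposite strand, and the library kit named in the labels does not mark strand. Rab3gap2 was at 69.9, 72.7 and 62.8 CPM in mIDH1, against 61.4, 79.9 and 85.8 CPM in wtIDH1, with overlapping groups and a log2 fold change of -0.14 ± 0.19 SE (edgeR adjusted p = 0.73).

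**Figure D2:**
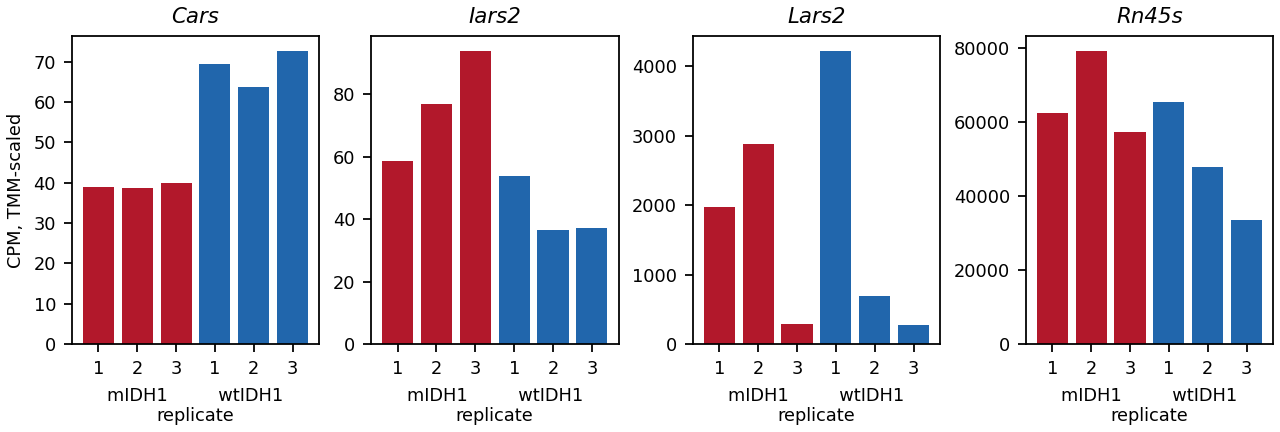
CPM in each library for Cars, Iars2, Lars2 and the ribosomal RNA precursor Rn45s, with the 3 mIDH1 libraries left of the 3 wtIDH1 libraries and a separate axis for each gene. Cars is lower and Iars2 higher in every mIDH1 library, while Lars2 ranges from 282 to 2881 CPM in mIDH1 and from 278 to 4224 CPM in wtIDH1.

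The other cytosolic enzymes had small differences. Of the 20 log2 fold changes 14 were positive, with a median of 0.17, against 53.4% positive and a median of 0.055 over all genes tested. With libraries scaled by their totals alone, 17 were positive, the cytosolic median was 0.24 and that of all genes 0.13. Without mIDH1 replicate 3 the tally was 11 positive of 20 and the cytosolic median 0.069, against a median of 0.036 over all genes. The 95% interval lay between -1 and 1 on the log2 scale for 18 of the 20 genes, all but Cars and Hars. Summed over the 20 genes the level was 1602, 1435 and 1749 CPM in mIDH1, against 1443, 1454 and 1543 CPM in wtIDH1, and these groups overlapped. In 5 genes every mIDH1 library lay above every wtIDH1 library and in 1 below. The same held for 14% and 14.9% of all genes tested, or 28.9% in either direction.

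The 4 cytosolic genes with the smallest p among those that did not pass were Dars, Vars, Gars and Hars, all with positive log2 fold changes. Dars, the aspartyl-tRNA synthetase of the multisynthetase complex, was at 62.1, 86.3 and 75.1 CPM in mIDH1, against 52.7, 54.0 and 50.7 CPM in wtIDH1. Its groups did not overlap, and the log2 fold change was 0.50 ± 0.20 SE (edgeR adjusted p = 0.14). Vars, the valyl-tRNA synthetase, was at 148, 135 and 134 CPM in mIDH1, against 112, 105 and 102 CPM in wtIDH1. Its groups did not overlap either, with a log2 fold change of 0.38 ± 0.16 SE (edgeR adjusted p = 0.18). Hars, the histidyl-tRNA synthetase, was at 39.9, 30.9 and 49.6 CPM in mIDH1, against 30.5, 26.6 and 27.8 CPM in wtIDH1. The lowest mIDH1 library of Hars lay just above the highest wtIDH1 library (log2 fold change 0.51 ± 0.25 SE, edgeR adjusted p = 0.26). Hars lies head to head with Hars2 on chromosome 18, and 195 bases of their exons overlap on opposite strands. None of the 4 genes passed under any of the 16 other settings tried, where their lowest adjusted p values were 0.090, 0.10, 0.15 and 0.18 in the order named.

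The enzymes that serve both compartments had level differences of the same sign. Gars was at 96.5, 112 and 134 CPM in mIDH1, against 87.6, 78.2 and 96.6 CPM in wtIDH1, and its groups touched at mIDH1 replicate 1 and wtIDH1 replicate 3. The log2 fold change was 0.38 ± 0.18 SE (edgeR adjusted p = 0.24). Kars was at 91.0, 89.8 and 98.0 CPM in mIDH1, against 85.8, 66.1 and 87.5 CPM in wtIDH1. These groups did not overlap, and the log2 fold change was 0.22 ± 0.18 SE (edgeR adjusted p = 0.54).

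Eprs, which encodes a single protein that charges both glutamate and proline, was at 153, 131 and 198 CPM in mIDH1, against 143, 127 and 133 CPM in wtIDH1 (log2 fold change 0.26 ± 0.18 SE, edgeR adjusted p = 0.46). Like Iars2 it lies on chromosome 1, from 185361417 to 185428360. The 8 synthetases of the multisynthetase complex (Dars, Eprs, Iars, Kars, Lars, Mars, Qars and Rars) had a median log2 fold change of 0.23, and 7 were positive. The 12 cytosolic enzymes outside it had a median of 0.067, and 7 were positive. None of the 8 passed edgeR's test, 1 was at an unadjusted p under 0.05, and no test compared the 2 lists. With libraries scaled by their totals or by upper quartiles, Rars was positive as well, at 0.023 and 0.0040. Without mIDH1 replicate 3 Qars was negative, at -0.061, and with single libraries left out Rars ranged from -0.24 to 0.12.

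Wars showed the widest spread of the cytosolic enzymes within wtIDH1. It was at 103, 72.7 and 55.7 CPM in mIDH1, against 52.2, 117 and 95.1 CPM in wtIDH1. The groups overlapped over most of their range, and the log2 fold change was -0.19 ± 0.29 SE (edgeR adjusted p = 0.77). Without wtIDH1 replicate 2 it was 0.059. All 15 tested genes of an interferon gamma list had negative log2 fold changes, with a median of -0.54. Ido1, the gene of the list with too few counts to be tested, had a higher mean in mIDH1. It was at 3.85, 1.49 and 0 CPM in mIDH1, against 0.0462, 0 and 0.0504 CPM in wtIDH1. Over all genes tested 53.4% were positive, with a median of 0.055. Of the 15 genes 3 fell, against 5.39% called lower over all genes. Those 3 were Nlrc5, an activator of MHC class I genes (-1.51 ± 0.25 SE, edgeR adjusted p = 0.0037), the transcription factor gene Irf8 (-0.76 ± 0.19 SE, adjusted p = 0.029) and the chemokine gene Cxcl10 (-1.65 ± 0.40 SE, adjusted p = 0.024), whose groups overlapped. Without mIDH1 replicate 1 the number of the list's genes that fell was 9, and without mIDH1 replicate 2 or wtIDH1 replicate 2 it was 1. DESeq2 called 2 genes of the list lower and 1 higher.

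**Figure D3:**
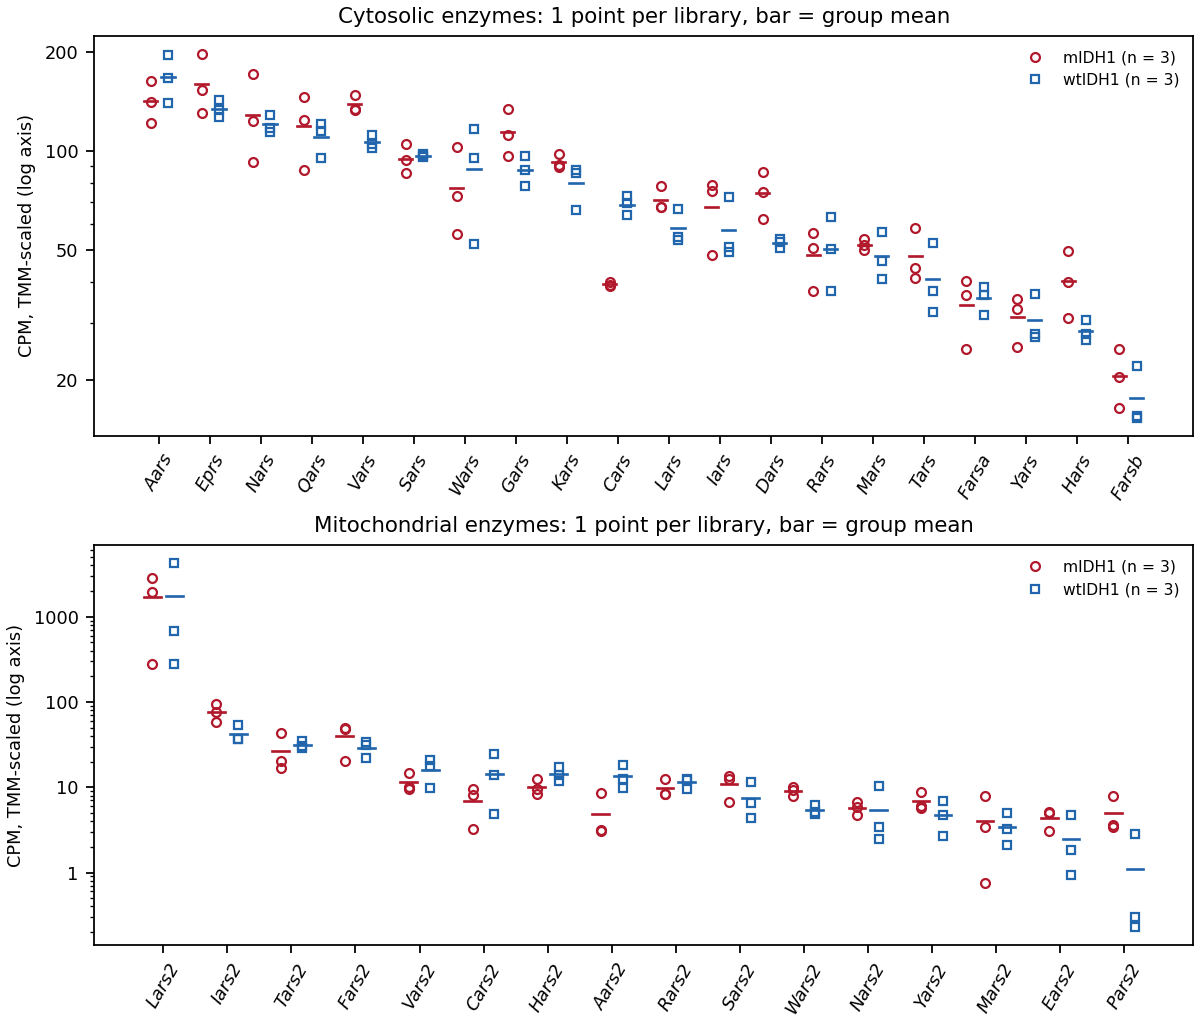
CPM of each synthetase gene in each library on a log axis, mIDH1 circles left of wtIDH1 squares, with group means as bars and genes ordered by their wtIDH1 mean. Cytosolic genes lie between 15.4 and 198 CPM, and Lars2 stands apart from all other mitochondrial genes.

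The mitochondrial enzymes were lower and more variable than the cytosolic ones. Per kilobase of exon, the median level was 2.80 CPM in mIDH1 and 4.01 CPM in wtIDH1 for the 16 mitochondrial genes, and 23.8 CPM in mIDH1 and 22.6 CPM in wtIDH1 for the 20 cytosolic genes. The median coefficient of variation between replicates was 30.0% in mIDH1 and 38.9% in wtIDH1 for mitochondrial genes, against 18.1% in mIDH1 and 12.3% in wtIDH1 for cytosolic genes. Of the 16 log2 fold changes 9 were positive, with a median of 0.17 and a range from -1.46 to 2.13. The median depended on single libraries, at 0.46 without wtIDH1 replicate 1, 0.036 without wtIDH1 replicate 2 and 0.023 without wtIDH1 replicate 3, and it was 0.33 with limma voom. The 95% interval lay between -1 and 1 for only 1 of the 16, Tars2.

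The 4 mitochondrial genes with the smallest p among those that did not pass were Aars2, Pars2, Cars2 and Wars2. Aars2, the mitochondrial alanyl-tRNA synthetase, was at 3.07, 8.51 and 3.14 CPM in mIDH1, against 12.5, 9.71 and 18.4 CPM in wtIDH1. Every mIDH1 library lay below every wtIDH1 library, with a log2 fold change of -1.46 ± 0.53 SE (edgeR adjusted p = 0.12), and the adjusted p reached 0.0501 at its lowest over the 16 other settings. Pars2, the prolyl enzyme, was at 3.59, 3.45 and 7.80 CPM in mIDH1, against 0.231, 2.81 and 0.303 CPM in wtIDH1. That is 125, 111 and 164 counts in mIDH1, against 5, 74 and 6 counts in wtIDH1, where replicate 2 stood apart, and the groups did not overlap (log2 fold change 2.13 ± 1.06 SE, edgeR adjusted p = 0.26). Cars2, the mitochondrial counterpart of Cars, was at 3.24, 8.13 and 9.56 CPM in mIDH1, against 14.0, 4.86 and 24.6 CPM in wtIDH1. Its groups overlapped at wtIDH1 replicate 2, and 17.4% of its 50-base words are shared with Naxd transcripts (log2 fold change -1.05 ± 0.59 SE, edgeR adjusted p = 0.32). Wars2, the tryptophanyl enzyme, was at 10.1, 9.28 and 7.99 CPM in mIDH1, against 4.81, 6.18 and 5.19 CPM in wtIDH1. Its groups did not overlap, and the log2 fold change was 0.76 ± 0.47 SE (edgeR adjusted p = 0.39).

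Of 13 amino acids with 1 enzyme in each compartment, the log2 fold changes had the same sign for 7 and different signs for 6. For cysteine both log2 fold changes were negative, at -0.81 for Cars and -1.05 for Cars2. For isoleucine both were positive, at 0.23 for Iars and 0.85 for Iars2. For histidine and valine they differed in sign, at 0.51 for Hars and -0.52 for Hars2, and at 0.38 for Vars and -0.50 for Vars2. Of these genes only Cars and Iars2 passed, and no difference between compartments was tested.

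Lars2, the mitochondrial leucyl-tRNA synthetase (chromosome 9, 123366927 to 123462675), stood apart from every other member. It was named after its values were seen. It was at 1971, 2881 and 282 CPM in mIDH1, against 4224, 689 and 278 CPM in wtIDH1, and the groups overlapped, with wtIDH1 replicate 1 above every mIDH1 library. Per kilobase of exon its mean was 439.5 ± 339 CPM in mIDH1 and 444 ± 557 CPM in wtIDH1 (SD, n = 3 each). The next gene by that measure, in the mIDH1 group, was Gars at 48.0 ± 7.91 CPM per kilobase (SD, n = 3). The log2 fold change of Lars2 was -0.02 ± 0.82 SE (edgeR adjusted p = 0.99), and without wtIDH1 replicate 1 it was 1.82 (edgeR adjusted p = 0.17).

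The libraries high in Lars2 were also those with the most ribosomal RNA precursor. Rn45s was at 62511, 79242 and 57335 CPM in mIDH1, against 65344, 47691 and 33454 CPM in wtIDH1. The 3 libraries with the most Rn45s, mIDH1 replicates 1 and 2 and wtIDH1 replicate 1, were the 3 with the most Lars2. The spread was unequal, since mIDH1 replicate 3 had 57335 CPM of Rn45s with 282 CPM of Lars2, and wtIDH1 replicate 1 had 65344 CPM of Rn45s with 4224 CPM of Lars2. The part of ribosomal RNA in the Lars2 counts was not tested. Without Lars2 the summed mitochondrial level was 225, 214 and 257 CPM in mIDH1, against 231, 188 and 190 CPM in wtIDH1. With it the sums were 2196, 3095 and 539 CPM in mIDH1, against 4454, 877 and 468 CPM in wtIDH1.

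Some further members share exons with other genes, and their values are uncertain for that reason. GENCODE places 23.1% of the exon length of Aars over Exosc6 on the same strand, 11.3% of Farsb over Sgpp2 and 4.90% of Fars2 over Lyrm4, both on the opposite strand. A processed pseudogene, Gm4849, shares 8.39% of the 50-base words of Iars. Aars was at 164, 122 and 141 CPM in mIDH1, against 167, 140 and 196 CPM in wtIDH1, with overlapping groups (log2 fold change -0.24 ± 0.19 SE, edgeR adjusted p = 0.51).

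The proteins that hold or resemble the synthetases had positive log2 fold changes but none passed. All 7 tested genes of this list were positive, with a median of 1.17, and 2 were at an unadjusted p under 0.05, while edgeR, DESeq2 and limma voom called 0 of them. Aimp1, a scaffold of the multisynthetase complex, was at 19.8, 26.0 and 30.1 CPM in mIDH1, against 21.4, 22.3 and 17.95 CPM in wtIDH1. Aimp2, a scaffold as well, was at 9.85, 35.4 and 7.28 CPM in mIDH1, against 14.1, 6.26 and 7.41 CPM in wtIDH1. Both overlapped between groups. Eef1e1, the third scaffold, was at 9.65, 10.8 and 10.8 CPM in mIDH1, against 3.37, 11.0 and 2.42 CPM in wtIDH1, and wtIDH1 replicate 2 lay above all mIDH1 libraries. Prorsd1, which resembles the editing domain of a prolyl enzyme, had a log2 fold change of 1.29 ± 0.50 SE (edgeR adjusted p = 0.14), and Dtd1, which removes D-amino acids from transfer RNA, one of 1.40 ± 0.60 SE (edgeR adjusted p = 0.19).

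Genes that act before or after charging mostly did not pass either. Of 22 cytosolic elongation and initiation factors edgeR called 0, with 6 higher and 1 lower at an unadjusted p under 0.05, a median log2 fold change of 0.37 and 16 positive. DESeq2 called 4 higher and 1 lower and limma voom 2 higher and 1 lower. With library totals alone edgeR called 3 higher and with upper-quartile factors 2 higher. With robust dispersion or without mIDH1 replicate 3 it called 1 higher and 1 lower, without mIDH1 replicate 1 it called 1 higher, and with no filter or a stricter one 1 lower. Eif2s3x, a subunit of eIF2, was at 254, 223 and 206 CPM in mIDH1, against 160, 156 and 154 CPM in wtIDH1 (log2 fold change 0.54 ± 0.16 SE, edgeR adjusted p = 0.057). Eif5, which triggers GTP hydrolysis by eIF2, was at 176, 189 and 239 CPM in mIDH1, against 289, 295 and 324 CPM in wtIDH1 (log2 fold change -0.59 ± 0.17 SE, edgeR adjusted p = 0.053). Neither pair of groups overlapped.

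Of 19 tested genes of transfer RNA processing and export edgeR called 0, with 3 higher at an unadjusted p under 0.05 and a median of -0.02, and DESeq2 called 1 higher and limma voom 0. Elac1, which trims transfer RNA at its end, was at 19.5, 21.8 and 20.4 CPM in mIDH1, against 10.1, 8.46 and 12.05 CPM in wtIDH1, without overlap (log2 fold change 1.01 ± 0.33 SE, edgeR adjusted p = 0.080). Of 14 mitochondrial translation and transamidation factors edgeR and limma voom called 0 and DESeq2 1 higher, with 1 at an unadjusted p under 0.05 and a median of 0.0072. That gene was Tsfm, the elongation factor Ts of mitochondria, at 12.6, 6.68 and 4.76 CPM in mIDH1, against 1.53, 1.14 and 2.02 CPM in wtIDH1 (edgeR adjusted p = 0.051). With upper-quartile factors, library totals alone, a stricter filter, robust dispersion or DESeq2, without mIDH1 replicate 3, or without Rn45s and Lars2, 1 gene of this list passed.

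**Figure D4:**
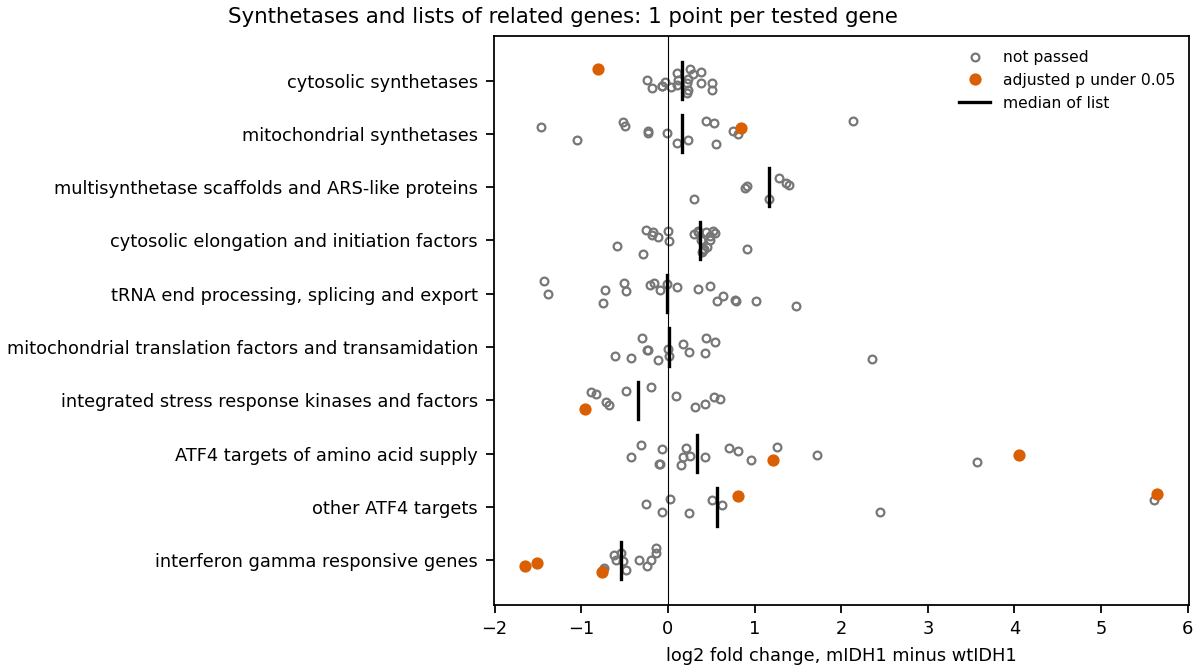
Log2 fold change (mIDH1 minus wtIDH1) of each tested gene, with the synthetases in the upper rows and lists of related genes below, filled points past the threshold and vertical bars at each list's median. The medians run from -0.54 for interferon gamma responsive genes to 1.17 for scaffolds and synthetase-like proteins, and both synthetase medians are 0.17, while the points far to the right include Cth and Vldlr, each at 0 CPM in 1 wtIDH1 library.

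The integrated stress response acts on synthetase genes through ATF4. Of its 12 kinases and factors 1 fell and none rose, a share near the 8.17% called over all genes, with 2 higher and 5 lower at an unadjusted p under 0.05 and a median of -0.34. Ppp1r15a, which directs the phosphatase that resets eIF2, was at 273, 328 and 266 CPM in mIDH1, against 494, 686 and 502 CPM in wtIDH1. Every mIDH1 library lay below every wtIDH1 library (log2 fold change -0.96 ± 0.18 SE, edgeR adjusted p = 0.0081), and the list had no call without wtIDH1 replicate 2. DESeq2 called 3 genes of the list lower.

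Atf4 itself was at 196, 186 and 192 CPM in mIDH1, against 234, 310 and 260 CPM in wtIDH1. Its groups did not overlap, with a log2 fold change of -0.49 ± 0.17 SE (edgeR adjusted p = 0.094). ATF4 is regulated mainly through its translation, so transcript levels alone do not measure its activity. Ddit3, the gene of CHOP, a later factor of the response, was at 7.21, 4.81 and 8.56 CPM in mIDH1, against 9.98, 19.9 and 8.27 CPM in wtIDH1, with overlapping groups (edgeR adjusted p = 0.30). Ddit3 overlaps 68 bases of the Mars exons on the opposite strand.

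Of 18 tested ATF4 targets of amino acid synthesis and uptake 2 rose and none fell. Of 10 other ATF4 targets 2 rose and none fell as well. Over all genes tested 2.78% were called higher and 5.39% lower, and no test compared these lists with all genes. Phgdh, the first enzyme of serine synthesis, was at 23.4, 28.0 and 29.1 CPM in mIDH1, against 13.7, 8.35 and 12.8 CPM in wtIDH1 (log2 fold change 1.21 ± 0.32 SE, edgeR adjusted p = 0.034). Cth, which makes cysteine from cystathionine, was at 5.17, 11.0 and 8.47 CPM in mIDH1, against 0.139, 1.29 and 0 CPM in wtIDH1 (edgeR adjusted p = 0.048). Its values in wtIDH1 replicates 1 and 3 lay at or below the level of 3 counts. Jdp2, a transcription factor gene, was at 104, 80.1 and 101 CPM in mIDH1, against 47.9, 59.1 and 55.8 CPM in wtIDH1 (log2 fold change 0.81 ± 0.19 SE, edgeR adjusted p = 0.022). Vldlr, a lipoprotein receptor gene, was at 3.39, 6.83 and 4.19 CPM in mIDH1, against 0, 0.0759 and 0.202 CPM in wtIDH1, values near the level of 3 counts (edgeR adjusted p = 0.018). In each of these 4 genes every mIDH1 library lay above every wtIDH1 library.

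These calls depended on single libraries. No target of amino acid supply passed without mIDH1 replicate 2 or wtIDH1 replicate 1, and 1 passed without mIDH1 replicate 1 or wtIDH1 replicate 2 or 3. Of the other targets none passed without wtIDH1 replicate 2, and 1 passed without mIDH1 replicate 1 or 2 or wtIDH1 replicate 1 or 3. Slc7a11, the cystine transporter, was at 433, 312 and 246 CPM in mIDH1, against 146, 166 and 252 CPM in wtIDH1, so that mIDH1 replicate 3 lay below wtIDH1 replicate 3 (log2 fold change 0.81 ± 0.24 SE, edgeR adjusted p = 0.059). Asns, the asparagine synthetase, was at 22.8, 23.7 and 15.6 CPM in mIDH1, against 3.05, 18.6 and 10.1 CPM in wtIDH1, with overlapping groups (edgeR adjusted p = 0.30).

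The 12 cytosolic synthetases commonly listed as induced by ATF4 (Aars, Cars, Eprs, Gars, Iars, Lars, Mars, Nars, Sars, Tars, Wars and Yars) had a median log2 fold change of 0.11, with 8 positive and Cars the only call, in the lower direction. The other 8 had a median of 0.22, with 6 positive. Sars, the seryl-tRNA synthetase, was at 85.5, 94.1 and 105 CPM in mIDH1, against 98.1, 95.6 and 96.7 CPM in wtIDH1. Its groups overlapped, and the 95% interval of the log2 fold change ran from -0.39 to 0.34. The genes with the motif TGATGNAAN shown above, Aars, Gars, Iars, Tars and Yars, had log2 fold changes of -0.24, 0.38, 0.23, 0.23 and 0.03, and none passed. Cars, Lars, Nars and Wars of the ATF4 list had no promoter window, so the motif was not searched in them.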

How the data were processed

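RNA from CD11b+ Gr-1+ cells was selected for polyadenylation and made into libraries with a kit that does not mark strand, per the labels' protocols. The authors deposited estimated counts per gene, 1 column per library, not scaled. The submitters' processing notes name HTSeq, TopHat2 2.0.13 with Bowtie2 2.2.1, Cuffdiff 2.1.1 with Cufflinks, and FastQC, on the build mm10, with the annotation and settings not given in the sources used here. In each library 1.31 to 1.61% of values were not whole to within 1e-09, and all were rounded.

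Genes were kept with filterByExpr (minimum count 10, minimum total 15), scaled by TMM and compared with edgeR 4.0.16 (glmQLFit, glmQLFTest, group only) in R 4.3.3, two-sided, with Benjamini-Hochberg adjustment over all genes and a threshold of 0.05. Each log2 fold change is mIDH1 minus wtIDH1. SE and 95% intervals come from that test. Pairs of replicates had a chi-square of 50.3 to 144 for each degree of freedom, far above counting error, and each was kept as 1 sample. Detection floors cover counting error only. Alternatives were other scalings, filters, DESeq2 1.42.0, limma voom (limma 3.58.1), robust dispersion, a replicate block and leaving out each library. A fit without Rn45s and Lars2 was chosen after seeing the data.

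Members and lists were chosen with earlier results of these data known. Values in every library are given for members past the threshold, for the 4 of each compartment with the smallest p that did not pass, and for Wars, Gars, Kars and Eprs. Of each related list the genes with the smallest p and a few preset ones are named. Lars2, Aars, Sars and the pairs set side by side between compartments were added after their values were seen. The library order of Iars2 set beside the macrophage markers was added in the same way. Exon lengths and overlaps are from GENCODE M21 basic transcripts, gene positions and promoters from RefSeq (GRCm38.p6), counted from 1. Mars was matched through its newer symbol. Dtd2 and Rtcb of the related lists were not analysed here.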

Additional observations from a re-analysis of the deposited data

How the results depend on the processing

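Cars passed under 11 of 16 other settings (log2 fold change -0.87 to -0.73, adjusted p 0.0038 to 0.11) and Iars2 under 10 of 16 (0.67 to 1.05, adjusted p 0.019 to 0.20). No other member passed under any of them. Leaving out a library gave 0 to 1 cytosolic gene lower and 0 to 1 mitochondrial gene higher, and limma voom gave 0 mitochondrial genes higher. Same-numbered libraries deviated together with correlations of -0.032, 0.031 and -0.051, so the numbers were not taken as pairs. With the replicate block 0 cytosolic genes were called lower and 0 mitochondrial genes higher (adjusted p = 0.064 for Cars and 0.11 for Iars2), 156 of all genes were higher and 429 lower, and 2 genes of the related lists were higher and 2 lower.

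Of all genes 360 were higher and 698 lower, so 66.0% of calls were lower, against 55.0% with library totals alone and 56.9% with upper-quartile factors. DESeq2 called 713 higher. Leaving out a library gave 78 to 365 higher and 256 to 707 lower, with the lowest counts without wtIDH1 replicate 2. Of the related genes 4 were higher and 4 lower, against 2.78% higher and 5.39% lower over all genes. The related lists had 7, 22, 19, 14, 12, 18, 10 and 15 tested genes. Upper-quartile factors gave 8 higher, library totals alone 9, DESeq2 13 and robust dispersion 7, no filter gave 8 lower, and leaving out a library gave 1 to 7 higher and 1 to 12 lower.

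The sign of small changes depended on the setting. With library totals alone Farsa was at 0.0030, Rars at 0.023, Sars at 0.050 and Lars2 at 0.0081. With upper-quartile factors Rars was at 0.0040, Sars at 0.037 and Lars2 at 0.019. With limma voom Lars2 was at 0.36 and Mars2 at -0.53, and with the replicate block Lars2 was at 0.30 and Mars2 at -0.25. Leaving out a library gave -0.22 to 0.11 for Farsa, -0.16 to 0.29 for Nars, -0.061 to 0.29 for Qars, -0.24 to 0.12 for Rars, -0.11 to 0.041 for Sars, -0.46 to 0.059 for Wars, -0.063 to 0.18 for Yars, -0.62 to 1.82 for Lars2, -0.72 to 0.73 for Mars2, -0.25 to 0.98 for Nars2 and -0.75 to 0.021 for Tars2. The causes were not tested. For 15 of the 16 mitochondrial genes the 95% interval reached beyond -1 or 1, at counts from 5 for Pars2 to 92791 for Lars2 in a library.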
